A study of Mus musculus with 12 samples.

Results

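The 81 genes described here are the expressed neighbours of Nox4 on mouse chromosome 7. They were chosen by position and by read count: a gene was taken if its start in the GENCODE M21 annotation of GRCm38 lay between 77 and 97 Mb, within 10 Mb of Nox4, and if it had at least 10 counts in at least 6 of the 12 libraries. The table of 21556 genes held 141 genes in this window, of which 81 were members, 53 were under the count limit (28 of them without a count in any library), and 7 were set aside by the rule, which was drawn up with their genotype differences known: Nox4 itself and the neighbouring group Sema4b, Ngrn, Rccd1, Unc45a, Hddc3 and Man2a2. RNA came from primary fibroblasts of mouse abdominal skin in 4 groups of 3 libraries: WT cells (strain C57BL/6) and Nox4 KO cells (strain B6.129-Nox4tm1Kkr/J), each either unstimulated (CTRL) or stimulated for 24 h (TGFb2) by TGF-β2, 10 ng/ml. All cells were starved before the stimulation, and TGF-β2 is the growth factor used to drive fibroblasts towards contractile myofibroblasts. Both lines of mice were bred from heterozygous animals and then kept as separate lines. The age and sex of the animals that gave the cells, and whether the replicates came from separate animals, are not given in the sources used here, so the p-values measure the spread between these libraries.

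Nox4 encodes an NADPH oxidase that produces hydrogen peroxide and is strongly transcribed in fibroblasts exposed to TGF-β. A knockout mouse inherits its targeted allele together with the flanking stretch of the same chromosome, and when the allele was made in cells of one strain and bred onto another, the genes nearest to it are the last to be exchanged. In these libraries the deletion of Nox4 and any other difference in the chromosome 7 sequence carried with the allele fall on the same samples and cannot be told apart.

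Of the members described below, Bnc1 and Hdgfl3 were higher and Dlg2 and Isg20 lower in KO cells in both conditions, and their upstream sequences are shown because, of the 12 members separated in both, their log2 fold changes averaged over the conditions were the largest in each direction. The RefSeq bases just upstream of their start sites (GRCm38.p6, printed 5′ to 3′ in the direction of the gene, cut where an annotated exon of the gene begins) are shown with every CG dinucleotide in capitals, because CG-rich promoters are typical of broadly expressed genes and CG-poor ones of genes with restricted expression. Bnc1 lies on the minus strand (chr7:81992300-81992549), as does Hdgfl3 (chr7:81934474-81934709). Dlg2, for which the RefSeq start nearest to the annotated gene start was taken of 3 (chr7:91090536-91090705, well inside the gene, whose GENCODE start is at 90476672), and Isg20, also with 3 starts (chr7:78913174-78913423), lie on the plus strand.
Bnc1: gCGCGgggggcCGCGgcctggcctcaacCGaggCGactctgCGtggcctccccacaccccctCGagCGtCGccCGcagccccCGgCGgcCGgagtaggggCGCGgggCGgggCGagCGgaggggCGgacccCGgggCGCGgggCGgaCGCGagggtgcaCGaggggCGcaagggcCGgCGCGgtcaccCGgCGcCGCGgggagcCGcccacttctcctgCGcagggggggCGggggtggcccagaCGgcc
Hdgfl3: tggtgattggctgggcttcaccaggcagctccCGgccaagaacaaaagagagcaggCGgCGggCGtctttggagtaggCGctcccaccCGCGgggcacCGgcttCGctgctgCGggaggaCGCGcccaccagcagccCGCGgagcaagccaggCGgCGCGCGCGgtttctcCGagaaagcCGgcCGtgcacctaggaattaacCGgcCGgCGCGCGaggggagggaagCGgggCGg
Dlg2: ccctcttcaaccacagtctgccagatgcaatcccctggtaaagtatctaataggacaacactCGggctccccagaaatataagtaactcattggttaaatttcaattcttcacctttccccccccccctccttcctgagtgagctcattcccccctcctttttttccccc
Isg20: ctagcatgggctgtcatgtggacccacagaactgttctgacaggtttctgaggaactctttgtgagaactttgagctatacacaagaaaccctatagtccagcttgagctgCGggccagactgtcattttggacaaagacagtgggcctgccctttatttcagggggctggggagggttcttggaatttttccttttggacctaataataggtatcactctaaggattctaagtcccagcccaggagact
The Bnc1 stretch of 250 bases held 39 CG dinucleotides and that of Hdgfl3 held 29 in 236 bases. The Dlg2 stretch held 1 in 170 bases, and the Isg20 stretch held 1 in 250 bases. Without that trimming the 250 bases of Dlg2 hold 3 and those of Hdgfl3 hold 30. These stretches do not stand for their direction: over the untrimmed 250 bases the 5 members higher in both conditions held 11 to 39 and the 6 lower ones with an entry 1 to 29, among them Gdpgp1 with 29 and Ankrd42 with 18. Over the 73 of 81 members with a RefSeq promoter, the median was 17 CG dinucleotides in 250 bases, against 16 over the 10132 of 12875 expressed genes with one.

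The libraries held between 35118344 and 43796260 counts. Nox4 was counted 211, 203 and 398 times in the WT CTRL libraries and 102, 108 and 207 times in the KO CTRL libraries. After TGF-β2 the counts were 1809, 1314 and 2471 in WT and 793, 782 and 1175 in KO. Nox4 was thus lower in KO but not at 0. In CTRL the groups overlapped in counts, and also when the 6 libraries were scaled on their own, while with all 12 libraries scaled together the highest KO library (1.30 RPKM) lay just under the lowest WT library (1.31 RPKM). In TGFb2 they were separate, and the log2 fold change of KO against WT was -0.99 (SE 0.37) in CTRL and -1.18 (SE 0.28) in TGFb2. Fibroblast markers were high in every library (9 of 9 expressed, summed RPKM 5460 to 8030). Macrophage markers were present at 13.9 to 120 summed RPKM (8 of 8 expressed).

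The first question was whether the neighbours of Nox4 differed between KO and WT cells. No member passed an adjusted p-value of 0.05 in edgeR's quasi-likelihood test in either condition, and the same was true of all 12875 genes tested (0%). Over all genes tested, 669 in CTRL and 435 in TGFb2 had an unadjusted p-value under 0.05. The smallest adjusted p-value of a member was 0.338 in CTRL, for Dlg2, and 0.861 in TGFb2. With DESeq2, 2 members passed in CTRL (Dlg2 and Isg20, all genes 0.179%) and 2 in TGFb2 (Bnc1 and Picalm, all genes 0.14%). With edgeR's exact test, 1 passed in CTRL (Dlg2, all genes 0.132%) and 3 in TGFb2 (Bnc1, Dlg2 and Picalm, all genes 0.0621%).

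Below that limit, members carried more small p-values than genes elsewhere. In CTRL, 19 of 81 members (23.5%) reached an unadjusted p-value under 0.05, compared with 5.2% of all genes, with 8 higher (all genes 2.4%) and 11 lower (all genes 2.8%) in KO. In TGFb2 the count was again 19 (23.5%), against 3.38% of all genes, with 10 higher (all genes 1.86%) and 9 lower (all genes 1.52%). The background stayed low on the rest of the same chromosome: among the 891 expressed genes of chromosome 7 outside the window, 5.39% passed in CTRL and 4.04% in TGFb2, and on the other chromosomes 5% and 3.14%. The count of members was 11 in CTRL without WT_CTRL replicate 1, where the share of all genes was 2.66%. In TGFb2 it was 11 without Nox4_KO_TGFb2 replicate 2 (all genes 2.84%) and 12 without WT_TGFb2 replicate 1 (all genes 2%).

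**Figure D1:**
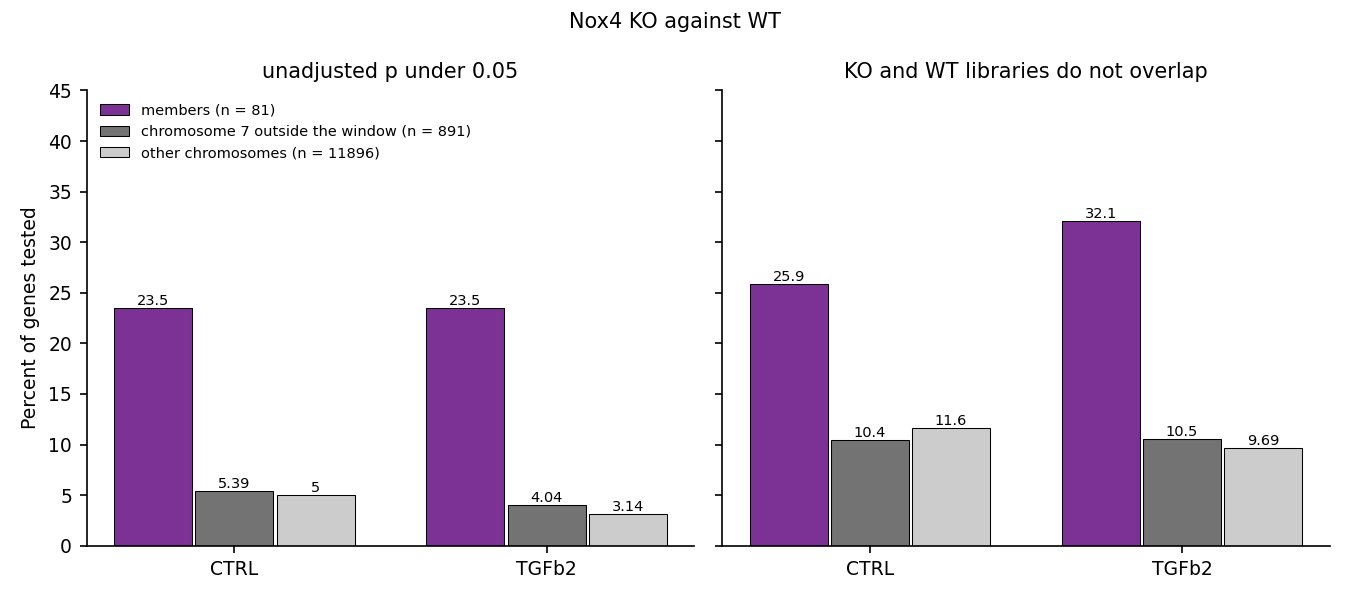
Percent of expressed genes (y axis) with an unadjusted p-value under 0.05 (left) or with KO and WT libraries that do not overlap (right), for Nox4 KO against WT in CTRL and TGFb2. Bars give the 81 members, the 891 other genes of chromosome 7 and the 11896 genes of the other chromosomes; the members stand at 23.5% to 32.1% and the other genes at 3.14% to 11.6%.

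The raw separation of the libraries, read from counts scaled by TMM, gave the same picture. In CTRL the 3 KO and the 3 WT libraries did not overlap for 21 members (25.9%), against 11.6% of all genes. Of these, 8 were higher in KO (all genes 5.78%) and 13 lower (all genes 5.83%). In TGFb2 the groups did not overlap for 26 members (32.1%), against 9.93% of all genes, 12 of them higher (all genes 4.4%) and 14 lower (all genes 5.54%). The size of the differences was modest for most members, with a median absolute log2 fold change of 0.19 in CTRL (all genes 0.10) and 0.22 in TGFb2 (all genes 0.15). A log2 fold change of at least 1 in either direction was measured for 2 members in CTRL (all genes 1.27%) and for 4 in TGFb2 (all genes 1.56%). As the directions were mixed, the median signed change was close to 0, at -0.02 in CTRL and -0.08 in TGFb2.

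Seen along the chromosome, the members did not move as 1 block. No expressed member started between Zfand6, 2.63 Mb before Nox4, and Ctsc, 1.03 Mb after it. Of the 13 members between 82 and 87 Mb, on the near side before Nox4, 3 had an unadjusted p-value under 0.05 in CTRL and 4 in TGFb2. All of them were higher in KO (all genes 2.4% and 1.86%). Of the 15 members between 87 and 92 Mb, just after Nox4, 4 and 5 had such a p-value, all of them lower in KO (all genes 2.8% and 1.52%). The outer stretches held both directions: among the 45 members between 77 and 82 Mb, 4 were higher and 5 lower in CTRL and 4 and 2 in TGFb2, and among the 8 members between 92 and 97 Mb, 1 was higher and 2 lower in CTRL and 2 and 2 in TGFb2. The shares of all genes are those just given for each direction and condition. Of the 7 genes set aside, all had an unadjusted p-value under 0.05 in both conditions, as the rule was drawn up with their differences known. Hddc3 was beyond every member in CTRL, at a log2 fold change of 1.93 in CTRL and 1.54 in TGFb2 and Man2a2, which shares 427 exon bases with it, at -0.79 and -0.70. At the edges of the window the first member, Ntrk3, had values of -0.19 in CTRL and -0.42 in TGFb2, and the last, Nars2, 0.12 and 0.18. The nearest expressed genes outside were Klhl25 at 75.85 Mb, with 0.25 and 0.23, and Gab2 at 97.08 Mb, with -0.32 and -0.09.

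**Figure D2:**
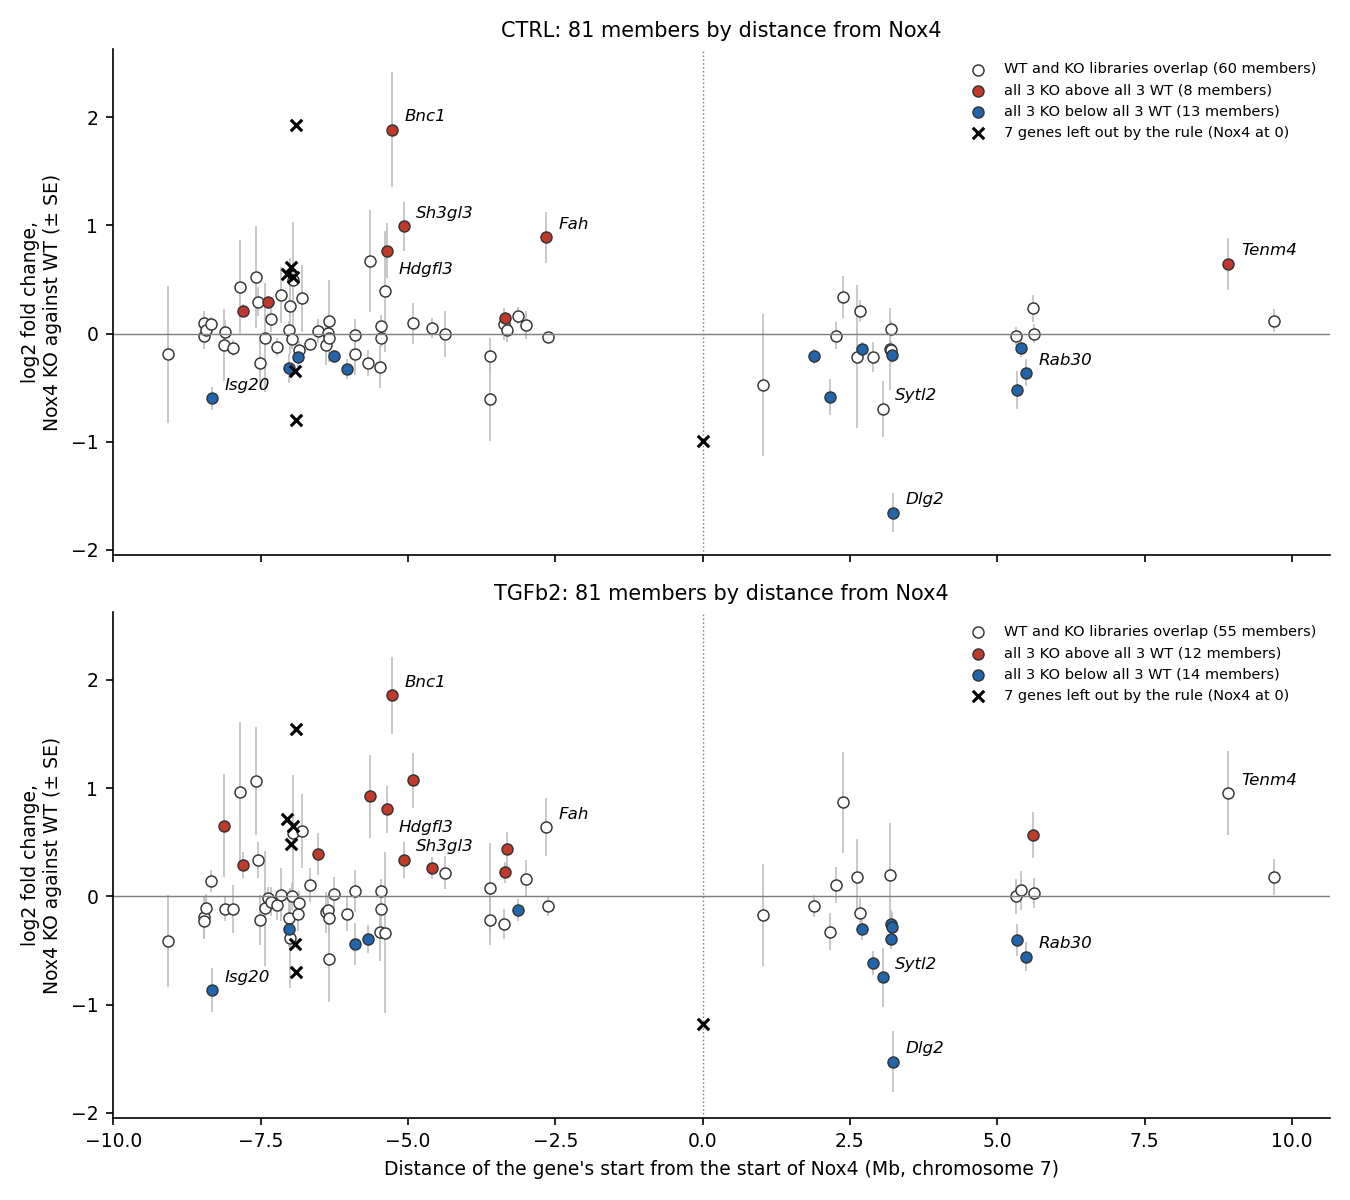
Log2 fold change of Nox4 KO against WT (y axis, points, with SE as bars) by the distance of each gene's start from that of Nox4 (x axis, Mb) in CTRL (top) and TGFb2 (bottom). Red and blue points are members whose 3 KO libraries all lie above or below the 3 WT libraries (8 and 13 in CTRL, 12 and 14 in TGFb2), open points are members that overlap, and crosses are the 7 genes set aside, with Nox4 at 0.

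For 12 members (14.8%) the KO and WT libraries did not overlap in both conditions and the difference had the same direction, against 0.847% of all genes. The 5 members Polg, Hdgfl3, Bnc1, Sh3gl3 and Mesd were higher in KO in both (all genes 0.513%). The other 7 were lower in both (all genes 0.334%): Isg20, Gdpgp1, Eed, Tmem126b, Dlg2, Ankrd42 and Rab30. More widely, 56 members (69.1%) had a log2 fold change of the same sign in CTRL and TGFb2, against 48.6% of all genes, and 10 members (12.3%) reached an unadjusted p-value under 0.05 in both, compared with 0.691%. The CTRL and TGFb2 comparisons share no library, but same-numbered libraries of the KO line deviated together across genes (correlations of 0.58 to 0.709), so the conditions are not independent repeats of the genotype difference. When libraries were scaled by their totals without TMM, 9 of the 12 members still separated in both conditions, and Mesd, Rab30 and Tmem126b did not.

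The largest positive difference was that of Bnc1, which encodes the zinc finger protein basonuclin 1, known from keratinocytes and germ cells. Its level was 0.445, 0.904 and 0.244 RPKM in the WT CTRL libraries and 2.86, 1.86 and 1.15 RPKM in KO CTRL. In TGFb2 it was 0.399, 0.30 and 0.262 RPKM in WT and 1.68, 1.11 and 0.706 RPKM in KO. All KO libraries thus lay above all WT libraries of the same condition. The log2 fold change was 1.88 (SE 0.53, adjusted p = 0.857 in edgeR's test) in CTRL and 1.86 (SE 0.35, adjusted p = 0.861) in TGFb2. The keratinocyte markers, 2 of 6 of them expressed and Krt1 at no more than 3 counts anywhere, summed to 0.561 to 1.08 RPKM in the KO libraries and 0.579 to 0.922 RPKM in the WT libraries, and their part in the Bnc1 difference was not tested.

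Hdgfl3 lies next to Bnc1 and belongs to the family of hepatoma-derived growth factor. It was at 0.871, 0.906 and 1.45 RPKM in WT CTRL and at 1.67, 1.5 and 2.31 RPKM in KO CTRL. After TGF-β2 the values were 0.528, 0.509 and 0.757 RPKM in WT and 1.07, 0.871 and 1.19 RPKM in KO. The groups did not overlap in either condition, with log2 fold changes of 0.77 (SE 0.26) and 0.80 (SE 0.22). Of its 7712 exon bases, 857 are shared with Tm6sf1 on the other strand. No source says whether counting was strand-specific, so reads from the shared bases cannot be told apart. Tm6sf1, counted only 4 to 49 times per library, had log2 fold changes of 0.39 and -0.33 with overlapping groups.

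Sh3gl3 encodes endophilin A3, which bends membranes during vesicle uptake. Its level was 0.744, 1.07 and 0.683 RPKM in WT CTRL against 1.67, 1.47 and 1.8 RPKM in KO CTRL, and 1.64, 1.98 and 1.8 RPKM in WT TGFb2 against 2.25, 2.21 and 2.4 RPKM in KO TGFb2. The gap was wider in CTRL (log2 fold change 0.99, SE 0.22) than in TGFb2 (0.34, SE 0.17), and the difference between those values is taken up with the interaction below. Polg, the catalytic subunit of the mitochondrial DNA polymerase, differed less, with 7.25 ± 0.37 RPKM in WT and 8.36 ± 0.198 RPKM in KO in CTRL (SD, n = 3) and log2 fold changes of 0.21 (SE 0.06) and 0.29 (SE 0.12). It shares 665 exon bases with Fanci. Mesd, the chaperone of the LRP5 and LRP6 receptors, was the most abundant of the 5, at 27.3 ± 0.531 RPKM in WT CTRL and 30.1 ± 0.956 RPKM in KO CTRL, with log2 fold changes of 0.15 (SE 0.05) and 0.22 (SE 0.10).

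The largest negative difference was that of Dlg2, which encodes a scaffold protein of synapses and lies 3.23 Mb after Nox4. It was counted 294, 318 and 272 times in WT CTRL and 112, 103 and 82 times in KO CTRL, or 0.949, 0.939 and 0.724 RPKM against 0.319, 0.271 and 0.236 RPKM. After TGF-β2 its counts were 55, 53 and 44 in WT and 19, 24 and 15 in KO. The libraries of each group were close to each other and the groups stood well apart, with log2 fold changes of -1.65 (SE 0.18, adjusted p = 0.338 in edgeR's test) in CTRL and -1.53 (SE 0.28, adjusted p = 0.861) in TGFb2.

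Isg20, an exonuclease for RNA that is induced by interferon, was at 8.40, 7.92 and 7.96 RPKM in WT CTRL and at 5.94, 5.26 and 4.79 RPKM in KO CTRL. In TGFb2 it was at 7.96, 8.70 and 6.10 RPKM in WT and 3.53, 3.98 and 5.0 RPKM in KO. Both pairs of groups were separate, with log2 fold changes of -0.60 (SE 0.11) and -0.86 (SE 0.20). Rab30, a small GTPase of the Golgi apparatus, was at 1.89 ± 0.249 RPKM in WT and 1.46 ± 0.132 RPKM in KO in CTRL, and at 1.30 ± 0.0863 and 0.883 ± 0.0577 RPKM in TGFb2 (SD, n = 3). Its log2 fold changes of -0.36 (SE 0.13) and -0.56 (SE 0.13) did not pass the adjusted test.

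The remaining 4 members that were lower in both conditions differed by smaller amounts. Ankrd42, an ankyrin repeat protein, had log2 fold changes of -0.52 (SE 0.18) and -0.40 (SE 0.15), and 257 of its exon bases are shared with Ccdc90b, whose own values were -0.02 and 0.00. Gdpgp1, a phosphorylase of GDP-glucose, stood at -0.32 and -0.30. Tmem126b, an assembly factor of respiratory complex I, stood at -0.19 and -0.29. Eed, a core subunit of Polycomb repressive complex 2, stood at -0.15 and -0.30, with KO CTRL libraries of 18.9, 18.9 and 18.9 RPKM below WT libraries of 21.1, 22.5 and 19.4 RPKM.

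**Figure D3:**
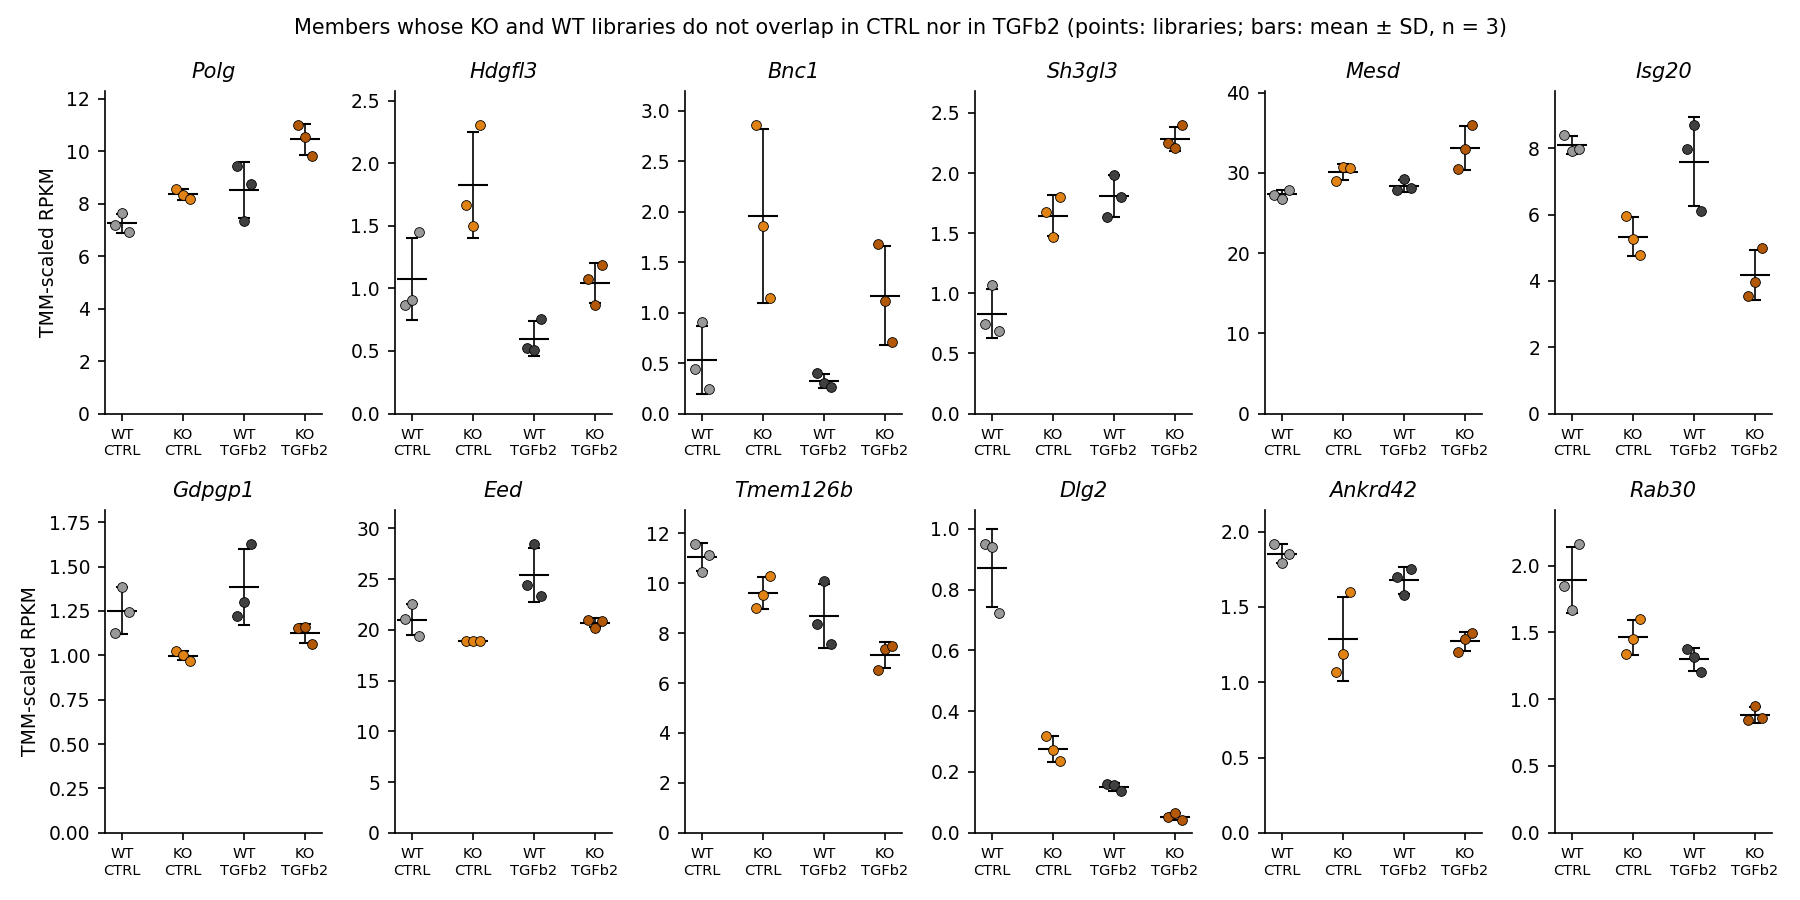
Level of the 12 members separated in both conditions, in RPKM scaled by TMM over all 12 libraries (y axis, from 0), in WT and Nox4 KO cells in CTRL and TGFb2. Points are libraries and bars the mean ± SD (n = 3); in the first 5 panels, for example Bnc1 with means of 0.531 and 1.96 in CTRL, KO lies above WT, and in the last 7, for example Dlg2 with 0.871 and 0.275, it lies below.

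Other members separated KO and WT in 1 condition only, and a difference in 1 condition was not by itself a difference between conditions. Fah, which carries out the last step of tyrosine breakdown and is the second nearest member before Nox4, was at 10.7, 8.84 and 6.66 RPKM in WT CTRL and 20.9, 15.0 and 12.4 RPKM in KO CTRL (log2 fold change 0.89, SE 0.24). In TGFb2 the WT values of 5.74, 8.90 and 4.24 RPKM reached into the KO values of 11.1, 8.78 and 9.55 RPKM (0.64, SE 0.27). Fzd4, a receptor for Wnt ligands and Norrin, lay 2.16 Mb after Nox4 and was lower in KO CTRL, at 8.81 ± 2.07 against 13.3 ± 0.85 RPKM (SD, n = 3, log2 fold change -0.59, SE 0.17), while its groups overlapped in TGFb2 (-0.33, SE 0.17).

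Picalm, which assembles clathrin coats, showed the reverse. Its level in TGFb2 was 121, 110 and 122 RPKM in WT and 69.3, 81.6 and 80.2 RPKM in KO, a log2 fold change of -0.61 (SE 0.11). In CTRL the WT libraries at 69.5, 70.1 and 52.8 RPKM overlapped with the KO libraries at 53.5, 61.3 and 49.8 RPKM (-0.22, SE 0.14). Adamtsl3, a secreted glycoprotein of the matrix, was at 1.06, 1.03 and 1.72 RPKM in WT TGFb2 and 2.91, 2.02 and 3.08 RPKM in KO TGFb2 (1.07, SE 0.25), but did not differ beyond the spread in CTRL (0.09, SE 0.19).

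Several other large fold changes belonged to members with low levels or a wide spread. Homer2, a synaptic scaffold, had log2 fold changes of 0.67 (SE 0.47) and 0.92 (SE 0.38) on 10 to 44 counts per library. Tenm4, a teneurin of the cell surface, had 0.64 (SE 0.24) and 0.95 (SE 0.39). Sytl2, an effector of secretory vesicle docking, had -0.70 (SE 0.26) and -0.75 (SE 0.27). Il16, a cytokine best known from leukocytes, had -0.60 (SE 0.39) and 0.08 (SE 0.42), and the WT CTRL value of 0.544 ± 0.263 RPKM (SD, n = 3) came from libraries at 0.389, 0.396 and 0.847 RPKM. The macrophage markers summed to 26.1 to 120 RPKM in the WT CTRL libraries and 21.1 to 93.5 RPKM in KO CTRL, and their part in the Il16 values was not tested.

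The 5 members nearest to Nox4 on each side differed between KO and WT to unlike degrees. Among them Fah and Fzd4, described above, had the largest log2 fold changes in CTRL (0.89 and -0.59). Before Nox4, Zfand6, a zinc finger protein that binds ubiquitin, had log2 fold changes of -0.04 and -0.09. Arnt2, a transcription factor of the bHLH-PAS family, had 0.08 and 0.16, and Abhd17c, which removes palmitate from proteins, 0.16 and -0.12. Cemip, which drives the breakdown of hyaluronan, had 0.04 (SE 0.11) and 0.43 (SE 0.16). The KO and WT libraries of Abhd17c and of Cemip did not overlap in TGFb2. After Nox4, Ctsc, the lysosomal protease cathepsin C, had -0.48 and -0.18 on 19 to 146 counts per library. Tmem135 had -0.21 (SE 0.07) and -0.09 (SE 0.10), with separate groups in CTRL, and the mitochondrial malic enzyme Me3 had 0.34 (SE 0.19) and 0.87 (SE 0.47). Prss23, a secreted protease and the most abundant member (389 to 588 RPKM over all 12 libraries), had -0.02 and 0.10. Within 5 Mb of Nox4, 6 of 27 members had an unadjusted p-value under 0.05 in CTRL (all genes 5.2%) and 9 of 27 in TGFb2 (all genes 3.38%). Over all 81 members the share was 23.5% in both conditions.

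Grouped by role, no member of any list passed the adjusted test between KO and WT (0% of all genes). Of 12 members with roles in mitochondria and metabolism, 2 had a higher and 2 a lower level at an unadjusted p-value under 0.05 in CTRL (all genes 2.4% and 2.8%), and 2 and 1 in TGFb2 (all genes 1.86% and 1.52%). Of 10 in endosome, lysosome and vesicle traffic, 2 were higher and 2 lower in CTRL and 0 and 3 in TGFb2. The 6 genes of DNA repair and cell division all had positive log2 fold changes in both conditions, with medians of 0.38 (0.09 to 0.52) in CTRL and 0.59 (0.14 to 1.07) in TGFb2, but only Ddias in TGFb2 had an unadjusted p-value under 0.05. Ticrr, which starts DNA replication, ranged from 0.414 to 1.22 RPKM in WT CTRL and from 0.728 to 1.86 RPKM in KO CTRL, so that the groups overlapped, and the same held for Fanci, a Fanconi anaemia protein. Of 8 receptors, ligands and signalling genes, 1 was higher and 3 were lower in CTRL and 0 and 1 in TGFb2. Of 9 matrix and adhesion genes, 1 was higher and 0 lower in CTRL and 3 and 0 in TGFb2, against the shares of all genes given above. In each of the lists for actin regulation, transcription, and RNA processing, with 7 genes each, at most 1 gene per direction and condition had such a p-value.

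The second question was how the neighbours of Nox4 responded to TGF-β2. In WT cells 21 of 81 members (25.9%) passed an adjusted p-value of 0.05 in edgeR's quasi-likelihood test, against 22.6% of all genes, and in KO cells 26 (32.1%), against 27.8%. The members' shares were thus close to the background. In WT 6 rose (7.41%, all genes 10.3%) and 15 fell (18.5%, all genes 12.2%). In KO 10 rose (12.3%, all genes 14.2%) and 16 fell (19.8%, all genes 13.6%). In all, 5 members rose in both genotypes (all genes 7.38%) and 10 fell in both (all genes 8.3%). At least 2-fold changes among these were mostly falls, with 1 rise and 9 falls in WT (all genes 2.92% and 6.44%) and 1 rise and 8 falls in KO (all genes 2.43% and 5.51%). Same-numbered CTRL and TGFb2 libraries were treated as pairs, although in WT those of replicate 1 correlated at only 0.108. With the replicate number as a block the count was 30 in WT (all genes 29.8%) and 45 in KO (16 rose and 29 fell, all genes 51.8%). In the unblocked test the KO count was 17 without Nox4_KO_CTRL replicate 1 (all genes 13.8%), 17 without Nox4_KO_TGFb2 replicate 1 (all genes 14.8%) and 13 without Nox4_KO_TGFb2 replicate 2 (all genes 9.69%).

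The members with the largest falls in both genotypes were Il16, Me3 and Dlg2. Il16 fell from 0.544 ± 0.263 to 0.0534 ± 0.0175 RPKM in WT (SD, n = 3) and from 0.358 ± 0.113 to 0.0561 ± 0.0181 RPKM in KO, with log2 fold changes of -3.33 (SE 0.43, adjusted p = 0.0034 in edgeR's test) and -2.65 (SE 0.37, adjusted p = 0.0064). Of its 5836 exon bases, 1202 are shared with Stard5, which also fell, and reads from the shared bases cannot be told apart either. Me3 fell by 2.52 (SE 0.36) on the log2 scale in WT and by 2.01 (SE 0.34) in KO. Dlg2 fell by 2.50 (SE 0.19) and by 2.39 (SE 0.26), so that it was lowest in KO cells after TGF-β2, at 0.0522 ± 0.0114 RPKM.

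Cemip, among the most abundant members, fell from 245 ± 22.3 to 66.5 ± 12.4 RPKM in WT (log2 fold change -1.86, SE 0.16) and from 250 ± 21.2 to 89.9 ± 9.19 RPKM in KO (-1.47, SE 0.11). Arnt2 fell by 1.61 in WT and by 1.53 in KO, and Fzd4 by 1.55 and by 1.29. Of the 8 receptors, ligands and signalling genes, 5 fell in WT (Ntrk3, Fzd4, Il16, Pde8a and Dlg2, all genes 12.2%). In KO 4 fell (all of these except Ntrk3, all genes 13.6%), and none rose in either genotype. Ntrk3, the receptor for neurotrophin-3, had -1.67 (SE 0.35) in WT and -1.89 (SE 0.72, adjusted p = 0.096) in KO, where it passed with the replicate block (adjusted p = 0.0068).

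The rises were smaller. Furin, the protease that cleaves the TGF-β precursor among other substrates, rose from 46.4 ± 2.71 to 76.6 ± 8.02 RPKM in WT (SD, n = 3, log2 fold change 0.74, SE 0.10) and from 41.6 ± 3.5 to 73.7 ± 3.79 RPKM in KO (0.83, SE 0.08). Abhd2, a lipase, rose by 0.81 (SE 0.18) and 0.82 (SE 0.14), and Mfge8, a secreted bridge between dying cells and phagocytes, by 0.64 (SE 0.15) and 0.50 (SE 0.07). Picalm rose by 0.89 (SE 0.13) and 0.49 (SE 0.11), and Tmem126a by 0.58 (SE 0.10) and 0.33 (SE 0.09). Iqgap1, a scaffold of the actin cortex, rose in KO (1.03, SE 0.10) and had 0.66 (SE 0.19, adjusted p = 0.051) in WT, which passed with the replicate block (adjusted p = 0.048). Cpeb1, which controls the poly(A) tails of mRNAs, rose in KO (0.70, SE 0.09), and its value in WT of 0.64 (SE 0.22, adjusted p = 0.078) passed with the block (adjusted p = 0.0059). Of the 6 genes of DNA repair and cell division, only Ddias fell in the unblocked test (in WT, -0.72, SE 0.14). With the replicate block, Fanci, Ticrr, Prc1, Blm and Ddias fell in WT, and Fanci, Prc1 and Ddias in KO. In the same libraries 6 of 14 known TGF-β response genes rose in WT (all genes 10.3%) and 7 in KO (all genes 14.2%), with none falling.

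**Figure D4:**
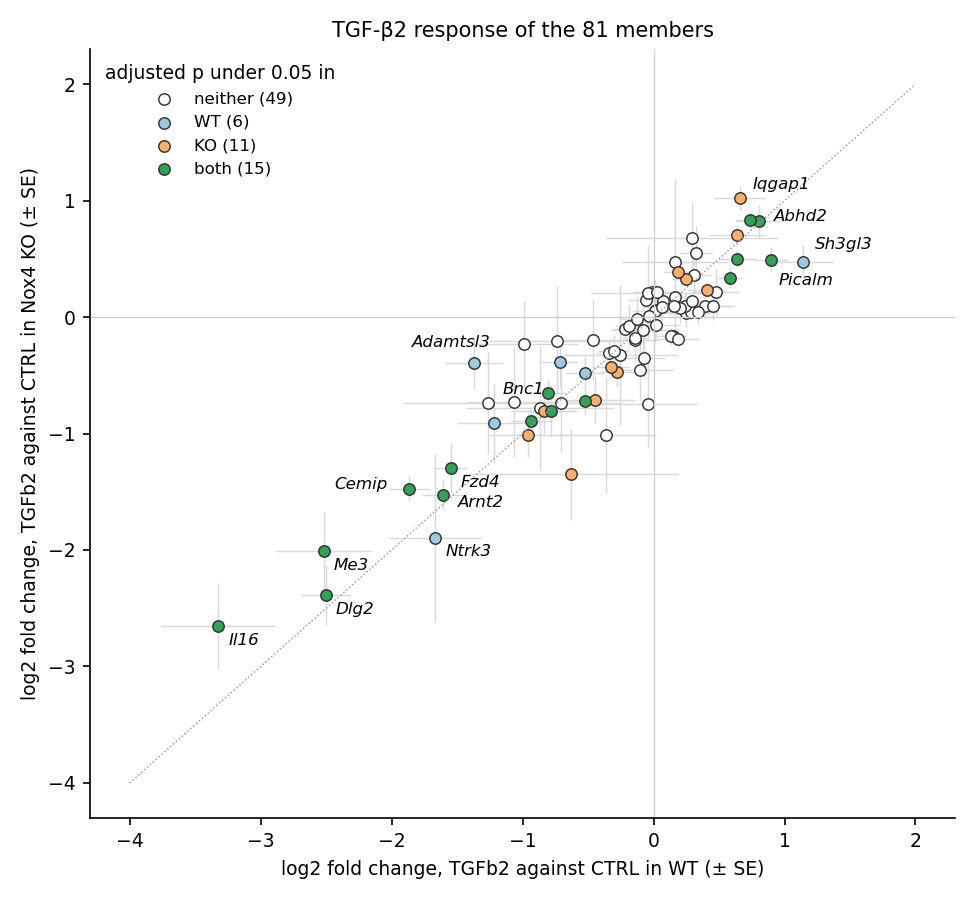
Log2 fold change of TGFb2 against CTRL in WT (x axis) and in Nox4 KO (y axis) for the 81 members, with SE as bars and the line of equal response dotted. Colours give an adjusted p-value under 0.05 in both genotypes (15 members), in WT (6), in KO (11) or in neither (49); Il16, Me3 and Dlg2 stand at the lower left with falls of 2.01 or more in both.

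The third question was whether the response differed between genotypes. The interaction of genotype and stimulation over all 12 libraries gave no member with an adjusted p-value under 0.05 in edgeR's test (all genes 0%) or in DESeq2 (all genes 0.0388%), and 4 members (4.94%) whose unadjusted p-value was under 0.05, compared with 2.49% of all genes. These were Adamtsl3, whose fall in WT (-1.37, SE 0.22) was larger than its value in KO (-0.40, SE 0.22, adjusted p = 0.0091 with the block), with an interaction of 0.99 (SE 0.34, adjusted p = 0.909), and Ap3s2, Sh3gl3 and Abhd17c, with negative interactions. Sh3gl3 rose in WT (1.14, SE 0.23) and had 0.48 (SE 0.14, adjusted p = 0.051, and 0.017 with the block) in KO, with an interaction of -0.65 (SE 0.26, adjusted p = 0.909). The count of 4 ranged from 2 without WT_CTRL replicate 3 (all genes 2.05%) to 7 without WT_TGFb2 replicate 1 (all genes 3.48%).

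The upstream sequences were also searched for CAGAC, the short motif bound by SMAD proteins, on both strands. It occurred in the 250 upstream bases of 30 of the 73 members with a RefSeq promoter (41.1%) and of 40.5% of all expressed genes with one. It was present in 5 of the 11 members that rose after TGF-β2 in WT or KO and in 8 of the 17 that fell and have a promoter entry. Of the members separated in both conditions, it was present in 2 of the 5 that were higher and in 5 of the 6 with an entry that were lower in KO. A match to so short a motif describes the sequence and is not a binding site.

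At the limit of the count rule, Hapln3 was the weakest member, with 3 to 12 counts per library and 6 libraries at 10 counts or more, followed by Ttll13 with 7 such libraries. The strongest genes left under the limit were Saxo2, Tmc3 and Rab38, each with 3 such libraries. A gene expressed in 1 genotype or in 1 condition could pass the limit on those libraries alone, so the counts above describe the 81 genes that passed and not the 134 genes of the window outside the 7 set aside.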

How the data were processed

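The deposited values are raw counts of reads per gene. Per the labels and the paper's methods, the authors base-called single-end 50-nt reads with CASAVA 1.8.2, mapped them to GRCm38 with STAR 2.4, discarded reads with several locations and counted the rest with featureCounts 1.4.6 on merged exons of protein-coding isoforms. The use of strand is not stated. From these counts, genes with at least 10 counts in at least 6 of 12 libraries (12875 genes) were tested with edgeR 4.0.16 (R 4.3.3; TMM, quasi-likelihood test, Benjamini-Hochberg adjustment over all of them), each comparison on its own 6 libraries and the interaction on all 12. Each SE is the log2 fold change divided by the square root of its F value. RPKM was computed from TMM-scaled counts and merged exon length; marker sums use library totals. Replicate numbers come from the labels. In the TGFb2 comparisons, same-numbered libraries deviated together in KO (correlations 0.58 to 0.709) and in WT for replicates 2 and 3 (0.427 and 0.536). WT replicate 1 (0.108) lay within the range of the genotype comparisons (-0.104 to 0.198). Only the TGFb2 comparisons were treated as paired, and for WT replicate 1 the correlation does not show a pairing. DESeq2 1.42.0 and other settings served as alternatives.

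The members and the gene lists were chosen with earlier results of these data known. Named are the members separated in both conditions, the 10 largest fold changes per genotype comparison, the largest called TGFb2 responses, the 5 nearest members on each side of Nox4, those at the edges of the rule, and examples from the lists. A test on simulated counts recovered the changes it was made with. Those changes were larger than the genotype differences of the members, and every simulated gene had the same dispersion. The simulation therefore does not measure the power for the differences described here. Replicate libraries were compared in pairs, and none agreed within sampling noise. No value column was left unassigned.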

Additional observations from a re-analysis of the deposited data

Results flagged for a closer look

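Ap3s2, a subunit of the AP-3 adaptor of lysosomal traffic, stood out because its libraries moved in opposite directions after TGF-β2. In WT it was at 5.38, 5.33 and 5.43 RPKM in CTRL and 5.64, 6.45 and 5.57 RPKM in TGFb2, so that all TGFb2 libraries were higher. In KO it was at 6.22, 6.81 and 6.61 RPKM in CTRL and 5.82, 5.76 and 5.89 RPKM in TGFb2, so that all were lower. The response in KO minus that in WT was -0.30 on the log2 scale (SE 0.10, adjusted p = 0.909 in edgeR's interaction test), which did not pass.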

How the results depend on the processing

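With 3 libraries a group and no call between genotypes in edgeR's quasi-likelihood test on the 6 libraries of a condition, single-gene differences between KO and WT rest on effect sizes and on separation of libraries. The exact test of edgeR and the scalings of the separation count were added after seeing the data. Adjusted calls between KO and WT were 2 in CTRL (all genes 0.179%) and 2 in TGFb2 (0.14%) with DESeq2, 1 in CTRL with all 12 libraries in the fit (0.0155%), and 1 (0.132%) and 3 (0.0621%) with edgeR's exact test. Of single members, Dlg2 passed in CTRL with DESeq2 (-1.66), with all 12 libraries (-1.66) and with the exact test (-1.65), and Isg20 with DESeq2 (-0.60). Bnc1 passed in TGFb2 with DESeq2 (1.87) and the exact test (1.86), and Dlg2 with the exact test (-1.53).

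Within 5 Mb of Nox4 the counts, over 27 members, were 6 (CTRL, all genes 5.2%) and 9 (TGFb2, all genes 3.38%) for unadjusted p-values. For separation in both conditions the count was 4 (all genes 0.847%). For the TGFb2 response it was 10 in WT (all genes 22.6%) and 13 in KO (all genes 27.8%), and for the interaction 2 (all genes 2.49%). With 1 library left out, the unadjusted counts ran from 11 to 20 in both genotype comparisons and from 2 to 7 in the interaction. The adjusted counts ran from 14 to 26 (TGFb2 in WT) and 13 to 25 (TGFb2 in KO) and stayed at 0 between genotypes. The share of all genes moved too, as given above for several of these fits. Separation in both ran from 12 to 16. With fewer libraries to compare, groups separate more easily, so this count could hardly fall below 12. Those fits hold fewer libraries and the same genes.

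With the replicate number as a block, the TGFb2 count was 30 in WT and 45 in KO, with the shares of all genes given above. The genotype counts by unadjusted p-value were 18 and 20 and the interaction count 7, none adjusted. These stand without the share of all genes under the block and are not read as results about the members. No TGFb2 call was lost under the block. The sign changed with a library left out for Adamtsl3 in CTRL (-0.095 without Nox4_KO_CTRL replicate 3, range -0.095 to 0.25) and for Il16 in TGFb2 (-0.13 and -0.23 without WT_TGFb2 and Nox4_KO_TGFb2 replicate 2, range -0.23 to 0.33). The cause was not tested. Several values that passed no test also moved widely with 1 library left out: in CTRL Homer2 (0.34 to 1.16), Tenm4 (0.39 to 0.78), Il16 (-0.80 to -0.13), Ticrr (0.11 to 0.85), Fanci (0.081 to 0.82) and Me3 (0.20 to 0.48), and in TGFb2 Me3 (0.56 to 1.36), Ticrr (0.65 to 1.38), Fanci (0.52 to 1.5) and Tenm4 (0.61 to 1.22). Some of the 12 members separated in both conditions moved as well, though none of them changed sign. Examples were Gdpgp1 (-0.38 to -0.16) and Tmem126b (-0.37 to -0.16) in TGFb2 and Eed (-0.20 to -0.093) in CTRL. Upper-quartile scaling, the 1 RPKM limit, no filter and adding the 7 genes kept the counts within 1.5 times.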
